A study of Mus musculus with 9 samples.

Results

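Definitive endoderm (DE) made in culture from mouse pluripotent cells was set against both its neighbours in a differentiation series at once, the starting embryonic stem cells (ES) and the anterior foregut cells (AFE) that come after it. For each gene the mean of the 3 DE arrays was compared with the average of the ES mean and the AFE mean, and DE was then compared with ES and with AFE singly. A gene was counted as a peak when DE was higher in all 3 comparisons and as a trough when it was lower in all 3, each with a Benjamini-Hochberg adjusted p of limma below 0.05. Of 10251 genes tested, 626 were peaks and 508 were troughs, 1134 genes in all. The main counts are given a second time without the third DE array, which stood apart from the other 2.

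RNA of flow-sorted cells was hybridised to Illumina bead arrays, 3 arrays for each of ES, DE and AFE. ES cells without a reporter were 129P2/OlaHsd, DE cells came from R1 ES cells, a cross of 129X1/SvJ with 129S1/SV-+p+Tyr- cKitlSl-J/+, and AFE cells were 129X1/SvJ. Stage therefore cannot be told apart from strain, cell line or sorting. The labels name the lines AV3, p2lac40, Sox17GFP and Pax9Venus without tying them to arrays, they attach 1 protocol to all samples, and they give neither the sorting gate nor the day of collection. In that protocol, cells kept on mouse embryonic fibroblasts with serum and LIF were freed of feeders and plated on gelatin with 10 µM Y-27632. They received 5 nM GSKiXV, an inhibitor of GSK3, with 5 µM IDE-1, a small molecule inducer of endoderm, on day 2 and IDE-1 alone on the following days. On day 6 they were replated with Y-27632 on plates coated with 804G conditioned medium, then given 500 nM A83-01, which blocks activin, Nodal and TGF-beta receptors, together with 100 nM LDN193189, which blocks those for BMP. The labels do not say that the arrays of a group come from separate cultures, and every p-value here then rests on the spread among these arrays alone, which may be technical.

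In the embryo, definitive endoderm leaves the primitive streak under high Nodal signalling, passing through a mesendoderm state that carries Eomes, Mixl1, Gsc and Lhx1 before Sox17 and Foxa2 define the endoderm. The streak factors are transient, whereas the gut tube later divides into foregut, midgut and hindgut with their own factors, Sox2 being one of the foregut. Extraembryonic endoderm of the yolk sac shares Sox17, Gata4, Gata6, Foxa2 and Hnf4a with definitive endoderm and is known for secreting serum proteins and for taking up and degrading maternal proteins.

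The contrast itself called 35.2% of the genes tested, 1667 genes higher in DE (16.3% of those tested) and 1940 lower (18.9%), and DE lay above both group means in 1520 of the former and below both in 1686 of the latter. DE was called higher than ES in 2276 genes (22.2%) and lower in 2227 (21.7%), and higher than AFE in 1036 (10.1%) and lower in 1322 (12.9%). These comparisons share the DE arrays, so a DE array that stands apart enters all of them. Peaks made up 6.11% of genes tested and troughs 4.96%, and these shares are the background for the counts of gene groups with all arrays that follow. Without DE 3 the shares were 9.34% and 7.2%, the background for group counts given without it. A difference of at least 2-fold from both groups was reached by 400 peaks (3.9%) and 209 troughs (2.04%), and of at least 8-fold by 54 peaks and 5 troughs. The DE arrays did not overlap with the other 6 in 598 of the 626 peaks and 497 of the 508 troughs; among all genes, DE lay wholly above the other arrays in 9.29% and wholly below in 9.86%. AFE was not called different from ES in 467 of the peaks (74.6%) and in 350 of the troughs (68.9%), against 57.9% of all genes. The peak nearest the threshold was Tmem179b, with a largest adjusted p of 0.0497, and the nearest gene outside was Ppp6r1 at 0.0501; for troughs these were Gpn1 at 0.0493 and Txnrd1 at 0.0502.

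**Figure D1:**
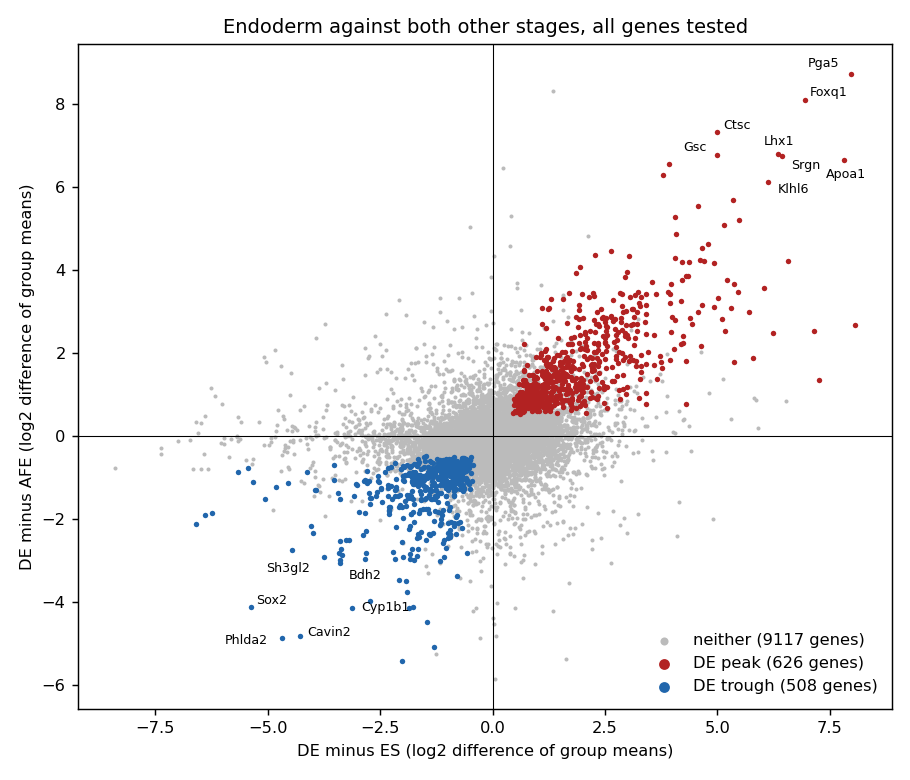
Log2 difference of group means of DE from ES (horizontal axis) and from AFE (vertical axis) for the 10251 genes tested, n = 3 arrays a group; red points are the 626 peaks, blue points the 508 troughs and grey points all other genes. The largest peaks, Pga5 and Foxq1, lie at the upper right, and the largest troughs, Phlda2, Sox2 and Cavin2, at the lower left.

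Levels below are log2 normalized intensities, differences are log2 differences of DE from the average of the ES and AFE means ± SE (n = 3 arrays a group), and folds are of group means. Where no array of a group had a detection p below 0.05 the gene was not above background there, and the fold is a lower bound, taken against the dimmest detected signal of each array. Levels of different genes come from different probes and are not set against each other. The 12 largest peaks and 12 largest troughs were chosen among genes whose DE arrays did not overlap with the other 6. By the smaller of the differences from ES and from AFE, the largest peak was Pga5, a precursor of the pepsin family of stomach proteases. Its level was 15.29, 15.46 and 13.57 on DE 1 to DE 3, 6.95, 6.50 and 6.95 on ES 1 to ES 3 and 5.41, 5.79 and 6.99 on AFE 1 to AFE 3. All DE arrays lay far above the other 6, with DE 3 the lowest of them, and the difference of 8.34 ± 0.46 (adjusted p 7.37e-06) came with a 252-fold higher mean than in ES and 419-fold higher than in AFE. Foxq1, a forkhead transcription factor, followed with 13.79, 14.18 and 11.85 in DE, 6.50, 6.22 and 6.26 in ES and 4.68, 5.08 and 5.79 in AFE. It was detected on 1 AFE array, its DE arrays did not overlap with the rest, and DE was 123-fold above ES and 272-fold above AFE (difference 7.52 ± 0.46, adjusted p 1.34e-05).

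Apoa1, the main protein of high-density lipoprotein, stood at 12.93, 12.86 and 12.14 in DE, 4.89, 4.73 and 4.89 in ES and 6.99, 5.56 and 5.43 in AFE. It was not above background on any ES array, and DE was at least 188-fold above ES and 100.5-fold above AFE (difference 7.23 ± 0.34, adjusted p 3.16e-06). Srgn, the proteoglycan core protein serglycin of secretory granules, had levels of 11.26, 10.87 and 12.03 in DE, 5.33, 5.03 and 4.49 in ES and 4.90, 4.68 and 4.39 in AFE, so that DE 3 was the highest array. DE exceeded ES, where 1 array detected it, by 86.8-fold and AFE, where no array detected it, by at least 67.0-fold (adjusted p 2.15e-06). Klhl6, a Kelch family adaptor of ubiquitin ligases known from B cells, reached 11.44, 11.41 and 12.16 in DE against 5.98, 6.07 and 4.55 in ES and 5.62, 5.99 and 5.06 in AFE. It was detected on 2 arrays of each of those groups, its smaller fold was 69.3, its 2 other detected probes were peaks too, and the DE arrays lay within 1 log2 unit of each other.

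Ctsc, the lysosomal protease cathepsin C, read 12.65, 12.62 and 10.15 in DE and 7.82, 8.03 and 4.57 in ES, where ES 3 did not detect it, and no AFE array detected it at 4.54, 4.46 and 4.47. Its difference was 6.16 ± 0.79 (adjusted p 0.000515), and the smaller fold, over ES, was 32.0. Cd40, a receptor of the tumour necrosis factor family, read 12.62, 12.55 and 10.99 in DE, 7.35, 7.74 and 7.37 in ES and 6.93, 5.96 and 6.68 in AFE and differed by 5.05 ± 0.37 (adjusted p 2.52e-05). All of its 4 detected probes were peaks. Gkn2, a secreted gastrokine of the stomach lining, stood at 9.92, 9.57 and 10.27 in DE while ES, at 4.43, 4.45 and 4.44, and AFE, at 4.91, 4.68 and 4.54, never detected it. It was at least 28.4-fold above ES and 24.2-fold above AFE (adjusted p 4.94e-07), and the DE arrays lay within 1 log2 unit of each other, DE 3 the highest. The remaining 4 of the 12 largest peaks, Lhx1, Gsc, Cer1 and Cfc1, belong to the streak and Nodal groups described further on.

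**Figure D2:**
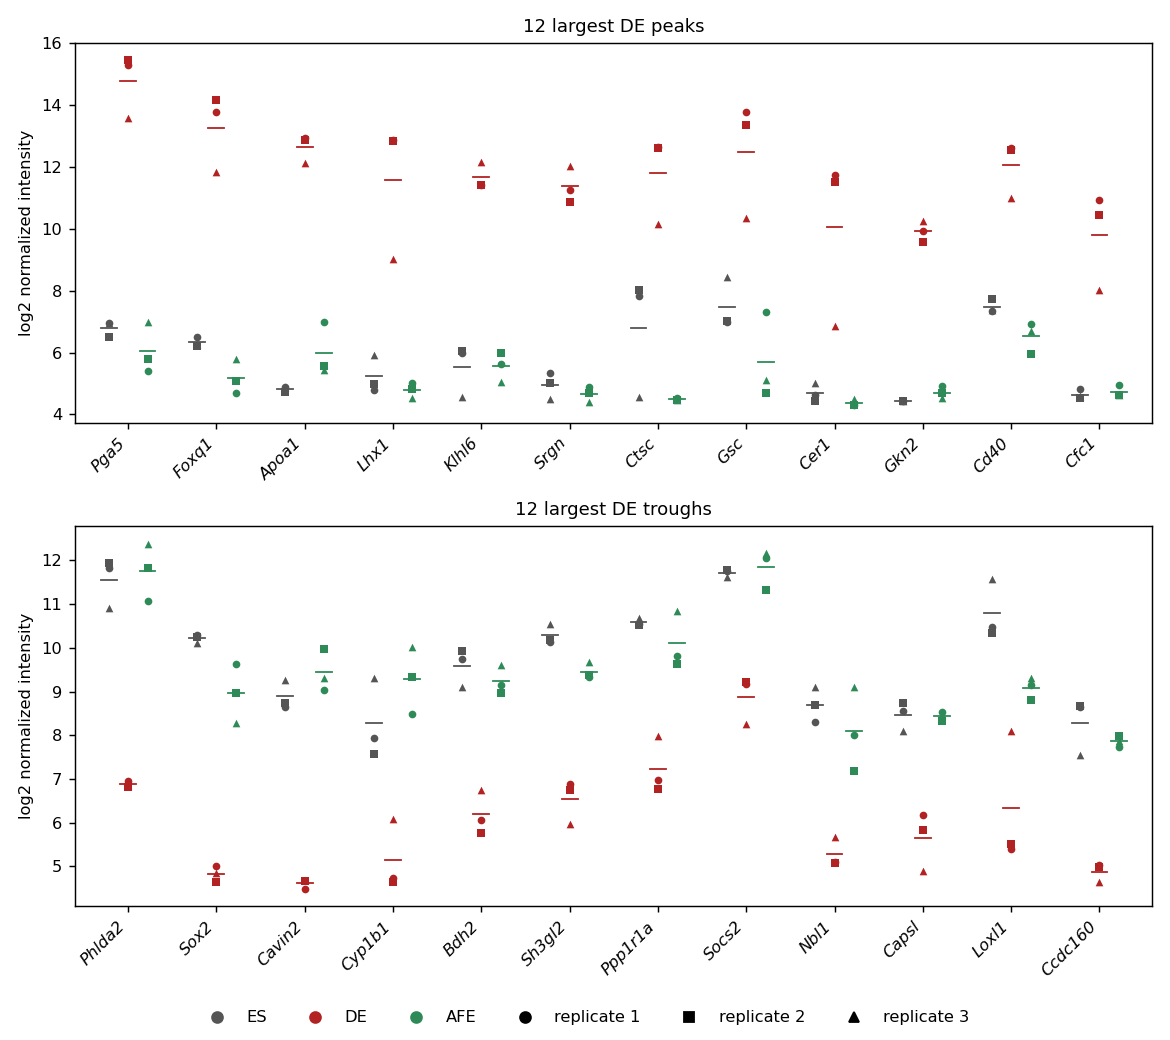
Log2 normalized intensity (vertical axis) on each array for the 12 largest peaks (upper panel) and the 12 largest troughs (lower panel); grey is ES, red DE and green AFE, marker shape gives the replicate and short bars are group means. Lack of overlap between DE and the other arrays was a condition for choosing these genes. DE 3 (red triangle) is the lowest DE array for Lhx1, Gsc, Cer1 and Cfc1 but not for Klhl6, Srgn and Gkn2.

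Promoters of 4 of the largest peaks and troughs are shown as examples of sequence with matches to short motifs of factor families that include peaks and troughs, such as GATA and SOX factors. They were picked because they hold matches. The windows of the peaks Apoa1, Srgn, Ctsc, Gsc and Cer1 and of the troughs Cyp1b1, Sh3gl2, Nbl1 and Ccdc160 hold none. They run from 250 bases before to 50 after the start of the gene, in RefSeq's GRCm38.p6, 5′ to 3′ on the gene's strand. Capitals mark every match on either strand, and no matches overlap in them. The letters searched for were AGATAA for GATA factors. Those for SOX factors were ACAATG. Forkhead factors were searched by TGTTTAC, HNF1 was searched by GTTAAT, and NF-Y was searched by CCAAT. Gkn2, on the plus strand at chr6:87373115-87373414, holds 1 GATA and 1 NF-Y match. Cfc1, on the plus strand at chr1:34535398-34535697, holds 1 GATA match, read on the opposite strand, and 2 NF-Y matches. Klhl6, on the minus strand at chr16:19983000-19983299, holds 1 GATA match. Sox2, a trough, on the plus strand at chr3:34649745-34650044, holds 1 NF-Y match and 1 HNF1 match.
Gkn2: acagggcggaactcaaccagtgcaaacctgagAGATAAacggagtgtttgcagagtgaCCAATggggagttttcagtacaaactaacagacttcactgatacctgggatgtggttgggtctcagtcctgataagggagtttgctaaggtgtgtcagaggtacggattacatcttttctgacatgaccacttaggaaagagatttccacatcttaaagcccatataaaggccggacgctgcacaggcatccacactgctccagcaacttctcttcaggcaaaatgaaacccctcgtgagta
Cfc1: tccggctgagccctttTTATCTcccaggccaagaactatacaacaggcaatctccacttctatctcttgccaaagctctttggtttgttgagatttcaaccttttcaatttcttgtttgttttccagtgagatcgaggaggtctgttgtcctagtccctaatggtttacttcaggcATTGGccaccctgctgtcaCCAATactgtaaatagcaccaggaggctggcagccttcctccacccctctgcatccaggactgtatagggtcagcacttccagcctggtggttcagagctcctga
Klhl6: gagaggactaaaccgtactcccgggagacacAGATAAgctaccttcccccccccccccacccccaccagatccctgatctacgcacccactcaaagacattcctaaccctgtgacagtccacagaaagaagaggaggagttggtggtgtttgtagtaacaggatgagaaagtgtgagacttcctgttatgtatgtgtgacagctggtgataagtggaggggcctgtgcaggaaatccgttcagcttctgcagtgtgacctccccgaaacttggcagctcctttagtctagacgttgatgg
Sox2: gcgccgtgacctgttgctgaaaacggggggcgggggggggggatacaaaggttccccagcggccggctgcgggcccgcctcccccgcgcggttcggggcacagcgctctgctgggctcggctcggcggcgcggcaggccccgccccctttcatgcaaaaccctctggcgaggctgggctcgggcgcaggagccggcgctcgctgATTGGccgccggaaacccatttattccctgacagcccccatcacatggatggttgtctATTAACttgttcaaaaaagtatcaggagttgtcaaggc

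Promoters were found for 507 of the 626 peaks (81%, 673 promoters) and 422 of the 508 troughs (83.1%, 533 promoters). The GATA letters occurred in 9.21% of peak promoters, 4.5% of trough promoters, 6.39% of the promoters of all genes tested and 11.2% of all 32851 promoters in the table. The NF-Y letters occurred in 32.8% of peak and 41.3% of trough promoters, against 37.7% for genes tested. The SOX letters were in 6.84% and 6.57% against 7.3%, the forkhead letters in 2.23% and 2.44% against 2.69%, and the HNF1 letters in 5.65% and 4.69% against 4.54%. Peak promoters had a median GC content of 60% and trough promoters of 60.3%, the same as for genes tested at 60.3%, with a median of 16, 21 and 20 CG pairs. These are descriptions without a test, and a match is not a binding site.

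A set of 64 peaks was not above background on any ES or AFE array, and all 64 were peaks without DE 3 as well. Since the filter asked for detection on at least 3 arrays, these genes entered the test only through the 3 DE arrays, and their detection there is a condition of the filter. Their smaller folds are lower bounds between 1.03 and 26.4. After Cer1, Gkn2 and Cfc1 the next was Slc7a8, a transporter of neutral amino acids, at 10.40, 10.56 and 8.02 in DE and at least 20.2-fold above both other groups. Muc13, a transmembrane mucin of gut epithelium, read 9.50, 9.49 and 7.82 in DE and was at least 12.2-fold higher. Aqp8, a water channel, read 8.11, 7.92 and 10.52 and Gkn1, a second gastrokine, 8.78, 8.61 and 8.91, and their bounds were 11.5-fold and 10.9-fold. DE 3 was the lowest DE array for Slc7a8 and Muc13 and the highest for Aqp8 and Gkn1. Also in this set were Sfrp5, Gata4, F10, Apoa4, Bmp2 and Myocd, described with their groups, and Apoc3, Cldn2 and Hesx1. Slc7a8, Muc13, Aqp8, Gkn1, Apoc3, Cldn2 and Hesx1 fall outside the naming rule and were chosen after their values were seen.

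Among the genes of the primitive streak and anterior endoderm, transcription factors and signals, 12 of 15 listed were tested, 7 were peaks and none a trough. Over the 12 the median difference was 3.16, against -0.06 over all genes tested. Lhx1, a LIM homeodomain factor of the embryo's organizer, stood at 12.88, 12.84 and 9.01 in DE, 4.81, 4.97 and 5.92 in ES and 5.02, 4.83 and 4.55 in AFE. DE did not overlap with either group, and the DE mean was 81.3-fold above ES, which detected it on 1 array, and at least 76.4-fold above AFE (difference 6.56 ± 0.76, adjusted p 0.000296). Gsc, the organizer homeodomain repressor goosecoid, stood at 13.77, 13.34 and 10.34 in DE, 6.99, 7.01 and 8.45 in ES and 7.32, 4.68 and 5.12 in AFE. Its difference of 5.89 ± 0.82 (adjusted p 0.000771) was 31.9-fold over ES and 109.6-fold over AFE, where 1 array detected it.

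Eomes, the T-box factor that opens the endoderm programme in the streak, read 11.85, 11.61 and 8.69 in DE, 6.78, 6.56 and 7.43 in ES and 4.36, 4.57 and 4.34 in AFE, where it was not above background. The DE mean was 13.9-fold above ES and at least 42.0-fold above AFE (adjusted p 0.000345). Hhex, a homeodomain factor of anterior endoderm, read 12.77, 12.93 and 11.65 in DE, 8.64, 8.63 and 7.82 in ES and 7.81, 7.55 and 7.40 in AFE, a difference of 4.48 ± 0.31 (adjusted p 1.78e-05) with all DE arrays above the rest. Mixl1, a homeodomain factor of mesendoderm, and Evx1, one of the posterior streak, differed by 3.54 ± 0.59 and 2.59 ± 0.43. Foxa2, counted again with the definitive endoderm factors, was the remaining peak. DE 3 was the lowest DE array for Lhx1, Gsc, Eomes, Hhex, Mixl1 and Evx1. At least 2-fold lower on DE 3 than on DE 1 and DE 2 were 10 of the 12 tested genes. Over all 10251 genes tested, 832 were at least 2-fold lower on it and 772 higher, the background for such counts below.

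Without DE 3, when 9.34% of all genes tested were peaks, the streak group held 10 peaks, with Otx2, Fgf8 and Wnt3 added. Otx2, a homeodomain factor of the anterior embryo, stood at 13.82, 13.87 and 10.81 in DE against 11.23, 9.60 and 11.79 in AFE, so DE 3 fell below AFE 1 and AFE 3. With all arrays DE minus AFE was 1.96 ± 0.85 (adjusted p 0.126), and without DE 3 it was 2.97 (adjusted p 0.00572). The difference from the average was 2.93 ± 0.74 (adjusted p 0.0136) and 3.94 ± 0.54 (adjusted p 0.000507). Fgf8, a signal of the streak and later of the pharynx, stood at 12.65, 12.69 and 9.14 in DE, 9.48, 9.12 and 9.12 in ES and 10.59, 10.29 and 7.74 in AFE, and DE 3 lay within the ES range.

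Of the Nodal and activin pathway, 15 of 18 listed genes were tested, and 2 were peaks and 1 a trough, with a median difference of 0.89. Cer1, a secreted antagonist of Nodal, BMP and Wnt that marks anterior endoderm, read 11.75, 11.52 and 6.86 in DE, 4.63, 4.44 and 5.00 in ES and 4.30, 4.29 and 4.51 in AFE. No ES or AFE array detected it, and DE was at least 31.0-fold above ES and 26.4-fold above AFE (difference 5.52 ± 0.91, adjusted p 0.00185); DE 3 sat between DE 1 and DE 2 and the other groups. Cfc1, the Nodal coreceptor Cryptic, read 10.94, 10.44 and 8.02 in DE, 4.81, 4.52 and 4.60 in ES and 4.95, 4.62 and 4.63 in AFE, again detected in DE alone and at least 22.3-fold above both. The trough was Inhba, the activin A subunit, which no DE array detected at 4.49, 4.50 and 4.53, while ES read 10.81, 10.85 and 11.63 and AFE 5.82, 6.07 and 7.97. ES exceeded DE by at least 63.2-fold and AFE by at least 2.84-fold (difference -4.35 ± 0.43, adjusted p 0.000119).

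Leaving out DE 3 turned 5 more pathway genes into peaks, giving 7, with Inhba still the 1 trough. Lefty1 and Lefty2 are secreted inhibitors of Nodal, and Nodal is the ligand itself. Lefty1 stood at 14.99, 14.96 and 9.33 in DE, 11.62, 11.53 and 12.12 in ES and 4.70, 4.96 and 4.70 in AFE, so that DE 1 and DE 2 were above every ES array and DE 3 below them all. With all arrays DE minus ES was 1.34 ± 1.24 (adjusted p 0.413), and without DE 3 it was 3.22 (adjusted p 4.27e-06). The difference from the average was 4.82 ± 1.07 (adjusted p 0.0079) and 6.70 ± 0.19 (adjusted p 1.91e-07). Nodal stood at 9.82, 10.12 and 7.32 in DE, 9.14, 9.27 and 8.92 in ES and 4.86, 5.46 and 5.44 in AFE, where 2 arrays detected it, and Foxh1, the forkhead partner of Smad2 at Nodal targets, at 8.91, 9.21 and 6.55, 7.38, 6.94 and 7.14 and 4.77, 4.53 and 4.48. For both, DE 3 lay below all ES arrays. Of the 15 tested members 9 were at least 2-fold lower on DE 3 than on DE 1 and DE 2, and 1 was at least 2-fold higher. Over all 10251 genes tested these counts were 832 and 772. The median gap of the pathway members was -1.86.

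**Figure D3:**
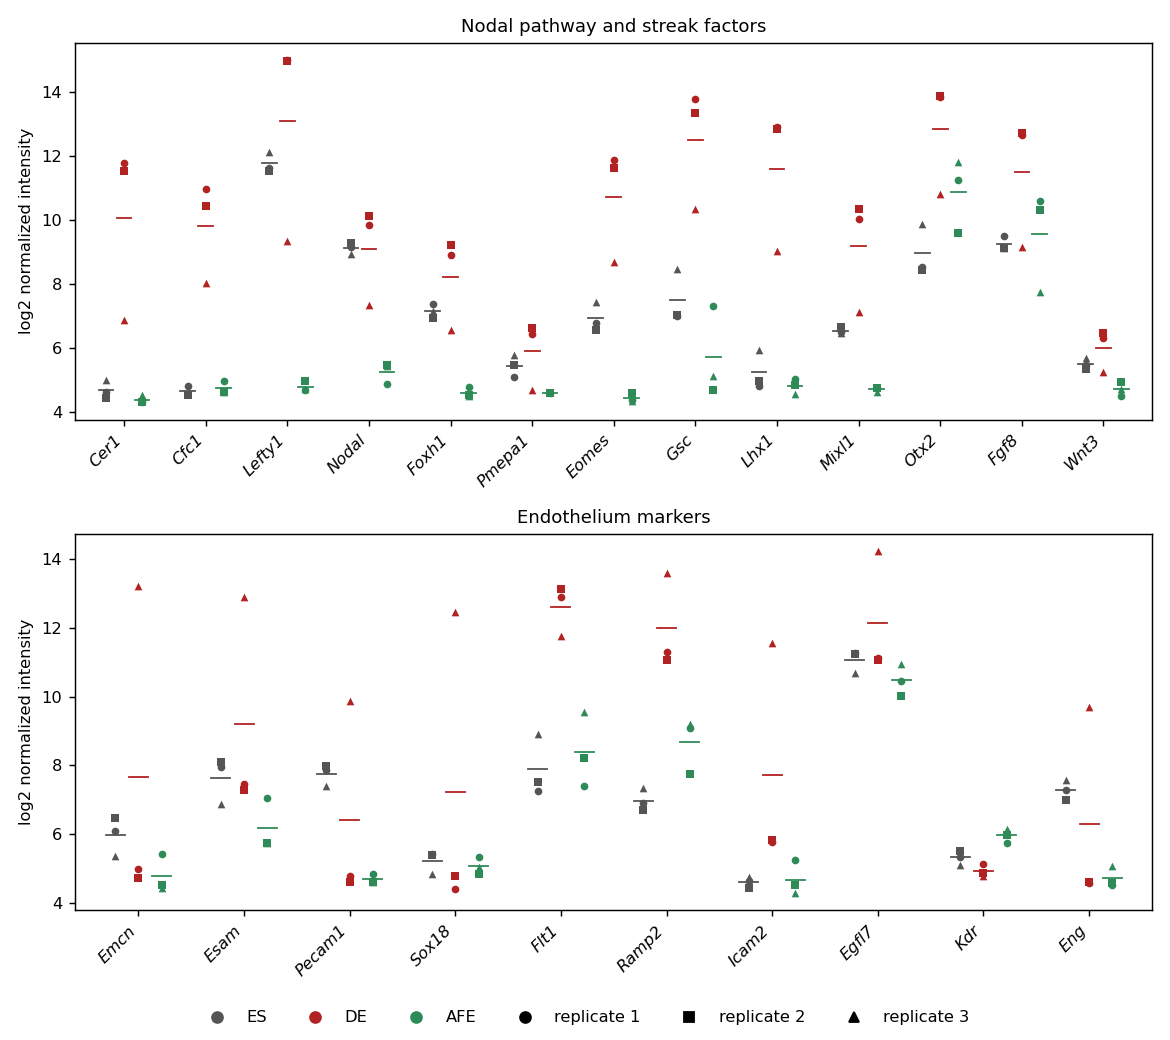
Log2 normalized intensity (vertical axis) on each array for Nodal pathway and streak genes (upper panel) and endothelium genes (lower panel), with grey for ES, red for DE, green for AFE, marker shape for the replicate and short bars for group means. DE 3 (red triangle) lies below DE 1 and DE 2 for every gene of the upper panel and above them for Emcn, Esam, Pecam1, Sox18, Ramp2, Icam2, Egfl7 and Eng, but not for Flt1 and Kdr.

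Among definitive endoderm factors and surface genes, 15 of 20 listed genes were tested, 7 were peaks and none a trough, with a median difference of 3.20. Sox17, the SRY-box factor of endoderm, stood at 12.46, 12.30 and 11.55 in DE, 4.75, 4.94 and 5.13 in ES and 8.60, 9.51 and 10.61 in AFE. DE was 143-fold above ES, where 1 array detected it, and 5.77-fold above AFE (difference 4.85 ± 0.39, adjusted p 3.85e-05). A Sox17GFP line is among those named, and whether Sox17 took part in the sort is not given, so its level in DE may carry the sort. Foxa2 and Foxa3, forkhead factors of gut endoderm, differed by 3.39 ± 0.29 and 2.62 ± 0.35, and AFE too was called higher than ES for both.

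Gata4, a zinc finger factor of endoderm and heart, was detected in DE alone at 7.71, 8.24 and 7.38 and was at least 5.49-fold above the other groups. Gata6, its relative, stood at 12.77, 12.84 and 12.05 in DE, 7.04, 6.98 and 6.53 in ES and 9.02, 9.42 and 10.26 in AFE, 52.1-fold above ES and 7.93-fold above AFE (adjusted p 1.59e-05). Hnf4a, a nuclear receptor of liver and yolk sac endoderm, read 9.97, 9.98 and 9.87 in DE, 6.01, 6.39 and 5.58 in ES and 6.69, 6.74 and 6.14 in AFE. Its DE arrays were nearly equal, DE 3 included, and it differed by 3.68 ± 0.21 (adjusted p 8.35e-06). Cxcr4, the chemokine receptor used to sort endoderm, became a peak only without DE 3: it read 12.05, 12.25 and 8.37 in DE, 5.16, 4.85 and 5.08 in ES and 9.55, 9.99 and 10.57 in AFE, so DE 3 lay below every AFE array. Tmprss2, a membrane serine protease, was the other gene added without DE 3, and its difference from AFE with all arrays was 0.90 ± 0.35 (adjusted p 0.0945).

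Extraembryonic endoderm and serum protein genes gave the highest count, 13 peaks and no trough among 20 tested of 26 listed, with a median difference of 2.29. Without DE 3 there were 12 peaks, 11 of them shared. Ttr, the thyroid hormone carrier transthyretin, stood at 12.44, 12.44 and 13.10 in DE, 4.57, 4.43 and 4.76 in ES, below detection, and 10.05, 9.51 and 10.41 in AFE. DE was at least 189.6-fold above ES and 6.37-fold above AFE (adjusted p 2.15e-06). Sox7, an SRY-box factor of parietal and visceral endoderm and of vessels, read 8.75, 9.14 and 11.93 in DE, 5.80, 5.86 and 5.98 in ES and 4.86, 4.56 and 4.59 in AFE, and Pth1r, the parathyroid hormone receptor of parietal endoderm, 9.26, 9.0 and 11.30, 5.28, 4.73 and 4.78 and 6.89, 5.86 and 7.48. Pth1r was detected on 1 ES array. For both genes DE 3 was the highest array by over 2 log2 units, and both remained peaks without it, at 3.67 ± 0.17 and 3.30 ± 0.36.

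Rbp4, the plasma carrier of retinol, was 75.7-fold above ES and 5.61-fold above AFE, and Afp, fetal alpha-fetoprotein, at least 5.46-fold above ES and 3.77-fold above AFE, where 2 arrays detected it. Apoa4, Apoe and Apom, carriers of lipids, F10, clotting factor X, and Spink1, a trypsin inhibitor, were peaks with differences from 1.95 for Apom to 3.01 for F10. Sparc, a matrix glycoprotein, and Thbd, thrombomodulin, were peaks only with DE 3, their adjusted p against ES without it being 0.0617 and 0.059. Rbp4, Afp, Apoa4, Apoe, Apom, F10 and Spink1 were taken as members of their list, outside the naming rule and after their values were seen. Alb, Apob, Fga, Fgb, Plat and Soat2 did not pass the detection filter.

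The genes for endocytic uptake, by which yolk sac endoderm takes in proteins, held 6 peaks and no trough among 11 tested of 14 listed, with a median difference of 2.42. Ctsh, a lysosomal cathepsin, read 11.78, 11.73 and 12.74 in DE, 6.78, 7.38 and 5.97 in ES and 8.49, 7.49 and 9.33 in AFE, 41.5-fold and 12.6-fold higher (adjusted p 0.000112). Lgmn, the endolysosomal protease legumain, read 12.29, 12.47 and 12.09 in DE, 9.90, 9.87 and 9.52 in ES and 9.49, 9.68 and 10.11 in AFE, with tight DE arrays and a difference of 2.52 ± 0.18 (adjusted p 2.57e-05). Amn, the membrane anchor of the uptake receptor cubilin, differed by 2.69 ± 0.49 with DE 3 the highest array, and cubilin itself, Cubn, was not tested. Dab2, Ctsl and Ctsz completed the 6, which were all peaks without DE 3 too. Of 12 tested lysosome genes 4 were peaks and none a trough: Ctsl, Lipa, Grn and Npc2, at 2.92, 1.59, 1.17 and 1.24, and the same 4 were peaks without DE 3. The call of Npc2 changed in 12 of 27 other settings, among them median scaling, the replicate block and leaving out ES 1, ES 2, DE 1, DE 2, AFE 1 or AFE 2.

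Basement membrane genes held 5 peaks and no trough among 12 tested of 15 listed, with a median difference of 1.76, and the same 5 were peaks without DE 3. Lama1, the laminin alpha chain of the embryonic basement membrane, read 12.53, 12.35 and 14.68 in DE, 9.20, 9.33 and 9.14 in ES and 10.69, 10.69 and 10.67 in AFE. Lamb1 and Lamc1, the beta and gamma chains of the same trimer, differed by 2.30 ± 0.25 and 2.28 ± 0.26, and Nid1, nidogen that links laminin to collagen IV, by 2.89 ± 0.54. Col4a1, a collagen IV chain, made the fifth. The call of Nid1 changed in 8 of 27 other settings, among them leaving out any ES array. For all 5 genes DE 3 was the highest array, and 7 of the 12 tested members were at least 2-fold higher on it than on DE 1 and DE 2.

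Secreted signals and their antagonists moved in both directions. In the Wnt pathway, 20 of 26 listed genes were tested, 5 were peaks and 4 troughs, and all 9 held without DE 3. Sfrp1, a secreted Wnt binder, read 13.71, 14.02 and 11.04 in DE, 7.90, 7.78 and 8.29 in ES and 8.66, 9.47 and 8.14 in AFE, 30.6-fold and 18.0-fold higher in DE (adjusted p 0.000546). Its relative Sfrp5 was detected in DE alone at 9.68, 10.22 and 8.25 and was at least 16.6-fold higher. Dkk1, an antagonist at the Wnt coreceptor, read 10.39, 10.55 and 8.25 in DE, 4.54, 4.32 and 4.67 in ES and 4.68, 5.33 and 7.92 in AFE. No ES array and 2 AFE arrays detected it, and AFE 3 came close to DE 3. Lgr5, a receptor for R-spondins, and Fzd8, a Wnt receptor, were the other peaks.

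Notum, an enzyme that removes the lipid of Wnt proteins, was a trough at 4.93, 4.73 and 5.84 in DE, 8.19, 8.42 and 9.01 in ES and 6.86, 7.21 and 9.58 in AFE, with a difference of -3.04 ± 0.55 (adjusted p 0.00291) and detection on 1 DE array. Sfrp2, another Frizzled-related Wnt binder, Nkd2, an intracellular Wnt inhibitor, and Wnt6, a ligand, were troughs as well, Sfrp2 opposite to Sfrp1 and Sfrp5. The pathway median of -0.21 turned positive in 5 other settings, to 0.09 without DE 3 and to 0.65 with detection p below 0.01, and is not read as a direction.

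Of FGF genes, 19 of 22 were tested, with 2 peaks and 2 troughs. Fgf5, a ligand of the primed epiblast, read 12.15, 12.18 and 10.32 in DE, 7.23, 7.17 and 8.50 in ES and 5.52, 4.71 and 4.79 in AFE, where 1 array detected it, and was 15.1-fold and 93.3-fold higher in DE (adjusted p 6.93e-05). Fgf10, a ligand better known from mesenchyme, read 11.96, 12 and 9.82 in DE, 6.89, 6.82 and 7.49 in ES and 8.49, 7.63 and 7.88 in AFE, and its 2 other detected probes were peaks. Fgf15, an endocrine FGF, was a trough at 4.98, 4.78 and 5.33 in DE against 7.90, 8.11 and 8.15 in ES and 6.79, 6.11 and 5.73 in AFE, with a difference of -2.10 ± 0.23 (adjusted p 0.000238), and 1 DE array detected it. Spred1, an inhibitor of Ras and ERK signalling, was a trough of -0.67 ± 0.18 that was not called without DE 3. In 15 of 27 other settings its call changed.

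In the BMP pathway 3 of 16 tested genes were peaks and none a trough. Bmper, a secreted binder of BMPs, read 10.84, 10.90 and 9.35 in DE, 6.87, 6.83 and 8.31 in ES and 6.47, 6.49 and 5.14 in AFE (difference 3.68 ± 0.49, adjusted p 0.000589). Nog, the BMP antagonist noggin, read 7.91, 7.96 and 8.66 in DE, 5.79, 5.75 and 4.75 in ES and 5.43, 5.40 and 6.43 in AFE, and differed by 2.59 ± 0.33 (adjusted p 0.000442). It was detected on 2 ES arrays, and Bmper on 2 AFE arrays. Bmp2, a ligand, was dim in DE at 5.24, 5.91 and 5.97 and at least 1.30-fold above the other groups. All 3 were peaks without DE 3, when Msx1 and Smad6, targets of the pathway, joined them.

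Retinoic acid genes gave 2 peaks and 2 troughs among 10 tested of 15 listed. Cyp26a1, which degrades retinoic acid, and Stra6, the receptor for Rbp4 that takes up retinol, were peaks with differences of 2.67 ± 0.41 and 2.00 ± 0.20; each was detected on 1 ES array. Rarg, a retinoic acid receptor, and Crabp1, a cytoplasmic binder of retinoic acid, were troughs at -2.10 ± 0.31 and -1.73 ± 0.28; another probe of Rarg was not a trough, and Crabp1 was not called without DE 3. The call of Rarg changed in 13 of 27 other settings. Ihh, a hedgehog ligand of visceral endoderm and gut, was the 1 peak among 6 tested hedgehog genes, at 5.92, 6.83 and 8.46 in DE against 4.71, 4.77 and 4.61 in ES, where no array detected it, and 5.69, 5.37 and 4.83 in AFE, where 2 did. The call of Ihh changed in 17 of 27 other settings, among them no background correction, median scaling, array weights, the replicate block and leaving out any ES or AFE array or DE 2. None of 11 tested Notch pathway genes was a peak or trough with all arrays; without DE 3 there were 3 peaks, Hes1, Notch3 and Nrarp, and 1 trough, Notch1.

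Guidance and chemokine genes held 5 peaks and no trough among 22 tested of 26 listed, all 5 kept without DE 3. Sema6d, a transmembrane semaphorin, read 9.33, 9.47 and 9.19 in DE, 4.64, 4.64 and 4.89 in ES, where it was not detected, and 5.69, 4.93 and 4.67 in AFE, where 1 array detected it. The DE arrays were tight, and DE was at least 18.9-fold above ES and 18.9-fold above AFE (difference 4.42 ± 0.22, adjusted p 4.21e-06). Nrp1, a coreceptor for semaphorins and VEGF, and Plxna2, a semaphorin receptor, differed by 3.14 ± 0.47 and 2.50 ± 0.28. Flrt2, a ligand of Unc5 receptors, and Unc5b, one such receptor, were peaks of 1.32 and 1.51.

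Secreted peptide and granule genes counted 2 peaks among 10 tested of 21 listed: Pga5, described above, and Chga, chromogranin A, at 7.13, 7.35 and 5.63 in DE, 5.47, 5.58 and 5.63 in ES and 4.83, 5.10 and 4.69 in AFE. DE 3 equalled ES 3 for Chga, and its 2 other detected probes were not peaks. Its call changed in 15 of 27 other settings. Genes of the primed epiblast counted 2 peaks among 8 tested, Fgf5 and Cdh2, the cadherin of mesoderm and neural cells, which differed by 2.19 ± 0.30. Without DE 3 the primed epiblast group held 6 peaks, with Dnmt3b, Otx2, Sox4 and Zic2 added. Cdh2 was also the 1 peak of 10 tested genes of mesenchymal transition, with or without DE 3. Heart and smooth muscle genes counted 2 peaks among 8 tested. Myl7, an atrial myosin light chain, read 10.45, 10.47 and 7.50 in DE, 5.74, 5.19 and 5.61 in ES and 6.74, 4.69 and 7.38 in AFE, and Myocd, a coactivator of smooth muscle genes, 9.19, 9.42 and 5.90 in DE and was detected in no other group. DE 3 was lowest of the DE arrays for both by about 3 log2 units, and both were peaks without it. Myl7 was detected on 2 ES and 2 AFE arrays.

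Imprinted genes gave peaks for Mest, a hydrolase-like protein, at 14.17, 14.31 and 13.66 in DE, 10.86, 10.72 and 10.62 in ES and 12.60, 12.72 and 11.73 in AFE, and for Nnat, neuronatin, at 9.77, 9.80 and 9.41, 4.84, 4.78 and 5.66 and 8.01, 6.41 and 5.59, with detection on 1 ES array. Phlda2 was the trough of this group of 12 tested genes. Without DE 3 these 3 calls held, Ascl2 and Grb10 were peaks as well, and Cdkn1c was a trough. Of the unfolded protein response and chaperone genes 2 of 17 were peaks, Pdia6 and Creld2, proteins of the endoplasmic reticulum, at 1.16 ± 0.18 and 0.74 ± 0.19. The call changed in 12 of 27 other settings for Creld2, among them median scaling and leaving out any ES array, DE 1, DE 2 or AFE 2. It changed in 8 for Pdia6, among them leaving out any AFE array, DE 1 or DE 2. Hk1, hexokinase 1, was the 1 peak of 19 glycolysis and hypoxia genes, Gstp1, a glutathione transferase, the 1 of 14 metallothionein and glutathione genes, and Elavl4, a neuronal RNA-binding protein, the 1 of 8 neural genes. They differed by 1.18, 0.97 and 1.04. The call of Gstp1 changed in 7 of 27 other settings.

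Posterior gut genes held 3 peaks among only 6 tested of 15 listed: Hnf4a, Evx1 and Vil1, the microvillus protein villin, which read 8.21, 8.23 and 7.30 in DE, 4.66, 4.46 and 4.45 in ES and 5.14, 4.73 and 5.61 in AFE. Villin was detected on no ES array and 1 AFE array. None of 11 tested anterior foregut genes was a peak with all arrays. Isl1 and Shh, foregut and pharynx genes, lay between the groups, with DE above ES by 2.64 ± 0.31 and 1.69 ± 0.25 and below AFE, with differences of -3.05 ± 0.31 and -3.54 ± 0.25. Pax1, a factor of the pharyngeal pouches, was not detected in ES or DE and read 9.64, 9.80 and 8.54 in AFE, and Pax9 did not pass the detection filter.

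Endothelium genes separated the DE arrays. Of 13 tested of 19 listed, 11 were at least 2-fold higher on DE 3 than on DE 1 and DE 2, against 772 of all 10251 genes tested. The median gap of the 13 was 5.26, and 2 were peaks. Flt1, a VEGF receptor, read 12.91, 13.14 and 11.77 in DE, 7.25, 7.52 and 8.91 in ES and 7.40, 8.21 and 9.56 in AFE, lower on DE 3 than on DE 1 and DE 2, and differed by 4.46 ± 0.53 (adjusted p 0.000332). Ramp2, a partner of the adrenomedullin receptor, read 11.30, 11.08 and 13.59 in DE, 6.90, 6.69 and 7.33 in ES and 9.08, 7.75 and 9.19 in AFE, highest on DE 3, and was a peak without it. Emcn, the endothelial sialomucin endomucin, read 4.99, 4.72 and 13.23 on DE 1 to DE 3 and Pecam1, the junction protein CD31, 4.77, 4.60 and 9.88, and neither was called. The group's median difference was 1.37 with all arrays, -0.55 without DE 3 and -0.47 with array weights.

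Summed over the endothelium markers, the linear normalized intensity was 13079, 13918 and 74477 on DE 1 to DE 3, between 3625 and 4348 in ES and between 2083 and 3802 in AFE. DE 3 detected 16 of the 18 markers on the array, all but Kdr and Erg, whereas DE 1 detected 7 and DE 2 detected 6. Of the same markers, ES arrays detected 11 or 12, more than DE 1 or DE 2, and AFE arrays 6 to 8. The 9 definitive endoderm markers were all detected on every DE array, and their sum was 64461, 64138 and 12662. It was between 3703 and 5097 in ES, where arrays detected 4 to 7 of them. In AFE, where each array detected 5, it was between 2233 and 4695. By the levels given above, the drop on DE 3 was larger for Lefty1, Cxcr4, Cer1 and Eomes than for Sox17, Gata4, Gata6 and Hhex. A linear sum is weighted to bright genes such as Lefty1. The sum of 8 extraembryonic endoderm markers was 18144, 17599 and 23158 in DE, at most 483 in ES and at most 2468 in AFE. For these bulk arrays, fewer cells of a type and less RNA per cell cannot be told apart, and the part of the endothelium genes in the results was not tested. Runx1, a factor of blood formation, was the 1 peak of 8 blood genes tested, at 7.83, 7.93 and 7.01 in DE, and DE 3 was its lowest DE array; 2 ES arrays and 1 AFE array detected it. The globins Hbb-y, Hba-x and Hba-a1 were not detected on DE 1 and DE 2 and were detected on DE 3, AFE 1 and AFE 2. The summed level of 10 blood markers was 492, 496 and 873 on DE 1 to DE 3, 6648, 1190.5 and 275 on AFE 1 to AFE 3 and between 272 and 290.4 in ES, and its part in the results was not tested.

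Fewer troughs than peaks reached 2-fold or 8-fold. Phlda2, an imprinted gene that restrains placental growth, led the troughs with 6.96, 6.82 and 6.87 in DE, 11.83, 11.94 and 10.91 in ES and 11.07, 11.82 and 12.38 in AFE. The DE arrays lay within 0.2 log2 units, and DE was 25.6-fold below ES and 29.3-fold below AFE (difference -4.78 ± 0.31, adjusted p 1.48e-05). Sox2, the SRY-box factor of pluripotent cells and of the foregut, was not detected on any DE array at 5.00, 4.65 and 4.84, with 10.30, 10.24 and 10.11 in ES and 9.62, 8.97 and 8.29 in AFE. ES was at least 34.3-fold and AFE at least 14.4-fold above DE (difference -4.76 ± 0.26, adjusted p 7.25e-06), and its other detected probe was a trough too. Among 16 tested genes of naive pluripotency it was the 1 trough. Pou5f1 and Nanog, the core pluripotency factors, were lower in DE than in ES, with differences of -6.74 ± 0.40 and -6.41 ± 0.89, and their differences from AFE of -0.09 ± 0.40 and 0.48 ± 0.89 were not called (adjusted p 0.895 and 0.74).

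Cavin2, a coat protein of caveolae, was not detected in DE at 4.48, 4.67 and 4.68 and read 8.66, 8.75 and 9.26 in ES and 9.03, 9.97 and 9.32 in AFE. Both groups were above DE, by at least 13.7-fold and 20-fold (difference -4.55 ± 0.23, adjusted p 4.21e-06). Cyp1b1, a cytochrome P450 that oxidises steroids and retinoids, read 4.73, 4.64 and 6.09 in DE, 7.93, 7.57 and 9.31 in ES and 8.50, 9.34 and 10.03 in AFE, with a difference of -3.63 ± 0.49 (adjusted p 0.000641). DE 3 alone of the DE arrays detected it. Loxl1, a crosslinking enzyme of elastic fibres, read 5.40, 5.51 and 8.09 in DE, 10.47, 10.34 and 11.57 in ES and 9.14, 8.80 and 9.32 in AFE, with DE 3 well above DE 1 and DE 2 yet below all other arrays.

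Socs2, a feedback inhibitor of cytokine signalling, read 9.17, 9.22 and 8.25 in DE, 11.76, 11.77 and 11.61 in ES and 12.05, 11.33 and 12.16 in AFE, 7.11-fold lower than ES and 7.79-fold lower than AFE (difference -2.90 ± 0.26, adjusted p 7.49e-05). Nbl1, a secreted BMP antagonist of the DAN family, read 5.10, 5.08 and 5.67 in DE, 8.30, 8.68 and 9.10 in ES and 8.01, 7.17 and 9.11 in AFE, and 2 DE arrays detected it. It lay opposite to the antagonists Nog, Bmper and Cer1. Bdh2, a short-chain dehydrogenase, Ppp1r1a, an inhibitor of protein phosphatase 1, Sh3gl2, an endophilin of endocytosis, and Capsl and Ccdc160 had differences of -3.23, -3.10, -3.33, -2.81 and -3.19. The 2 other detected probes of Sh3gl2 were not troughs.

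In all, 26 troughs were not detected on any DE array, and 23 of them were troughs without DE 3. Their smaller folds are lower bounds from 1.14 to 14.4. Beside Sox2, Cavin2, Ccdc160 and Inhba they include Wnt6, Alcam, an adhesion molecule, Six4, a homeodomain factor, and Mgp, a matrix protein, the last 3 chosen after their values were seen.

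The mitosis genes were the group with the most troughs for its size, 7 of 12 tested and no peak, with a median difference of -0.81. Cdc20, the activator of the anaphase-promoting complex, read 11.66, 11.40 and 12.30 in DE, 12.96, 13.05 and 12.79 in ES and 13.11, 13.01 and 13.37 in AFE, and all of its 4 detected probes were troughs (difference -1.26 ± 0.21, adjusted p 0.00183). Top2a, topoisomerase II of dividing cells, read 10.53, 10.59 and 10.92 in DE, 11.85, 11.62 and 11.62 in ES and 11.78, 11.26 and 11.72 in AFE, and Bub1b, a spindle checkpoint kinase, 8.70, 8.86 and 9.21, 10.56, 10.44 and 10.05 and 10.07, 9.73 and 9.58. In all 3 genes every DE array was below the other 6, and the means were 2.21-fold, 2.03-fold and 2.69-fold lower than in ES and 2.59-fold, 1.88-fold and 1.83-fold lower than in AFE. Aurka, Kif11, Nusap1 and Tpx2, proteins of the spindle, were the other troughs, and 1 of the 2 other detected probes of Nusap1 was not one. All 7 were troughs without DE 3, when Cenpa, a centromeric histone, made 8. Of 16 tested S phase genes none was a peak or trough, and 4 were lower in the contrast.

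Gadd45a and Mdm2, targets of p53, were the 2 troughs of 13 tested cell cycle inhibitor and p53 genes, at -1.91 ± 0.27 and -1.10 ± 0.17. Their other detected probes were not troughs. In 27 other settings the call changed in 9 for Gadd45a and in 7 for Mdm2, for both among them leaving out DE 1, DE 2 or AFE 2. Epithelial junction and keratin genes counted 2 troughs and no peak among 20 tested. Grhl2, a grainyhead factor of epithelia, read 7.76, 7.73 and 4.81 in DE, 9.10, 8.82 and 9.02 in ES and 9.64, 9.63 and 9.45 in AFE, and Cldn4, a tight junction claudin, 9.26, 9.23 and 7.58, 11.09, 11.03 and 10.49 and 11.79, 11.40 and 11.76. Grhl2 was detected on 2 DE arrays, and its call changed in 7 of 27 other settings, among them leaving out any ES array. DE 3 was the lowest array for both, both were troughs without it, and 12 of the 20 members were at least 2-fold lower on DE 3 than on DE 1 and DE 2. The group's median of -0.34 became 0.02 without DE 3 or with array weights. Without DE 3, Krt8, a keratin of simple epithelia, Crb3 and Ovol2 were peaks; Krt8 read 14.15, 14.22 and 13.01 in DE, 11.95, 11.81 and 10.67 in ES and 12.67, 12.74 and 12.84 in AFE. Cdh1, E-cadherin, did not differ beyond its spread, at -0.09 ± 0.28 (adjusted p 0.835), and its difference was 0.35 ± 0.16 without DE 3.

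Ifitm1, an interferon-induced membrane protein, and Psmb9, an immunoproteasome subunit, were the 2 troughs of 14 tested interferon and antigen presentation genes, at -2.64 ± 0.31 and -1.82 ± 0.29, Psmb9 with detection on 1 DE array; the other probes of Ifitm1 were not troughs. Slc7a3, a cationic amino acid transporter, read 9.09, 9.16 and 8.07 in DE, 12.71, 12.64 and 12.98 in ES and 10.08, 11.64 and 11.61 in AFE and was the 1 trough of 14 amino acid response genes; its other probe was not a trough. Mtf2 and Phc1, Polycomb proteins, were the 2 troughs of 13 DNA methylation and Polycomb genes at -1.36 ± 0.20 and -1.41 ± 0.15. Mtf2 was not called without DE 3, and the other probes of Phc1 were not troughs. In 27 other settings the call changed in 18 for Mtf2, among them cyclic loess, median scaling and the replicate block, in 8 for Phc1 and in 10 for Psmb9.

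Fibroblast genes gave 1 peak and 2 troughs among 15 tested. Pdgfra, the PDGF receptor alpha of mesenchyme and of extraembryonic endoderm, was the peak at 10.38, 10.34 and 11.41 in DE, 6.01, 5.67 and 7.40 in ES and 7.31, 7.42 and 5.83 in AFE. Acta2, smooth muscle actin, and Prrx1, a factor of limb and cranial mesenchyme, were troughs at -2.35 ± 0.47 and -1.97 ± 0.29; the 3 other probes of Acta2 were not troughs and it was not called without DE 3, and 1 of the 2 other probes of Prrx1 was not one. The summed level of 16 fibroblast markers was 31769, 32541 and 65853 in ES, 8051, 8276 and 8201 in DE and 9519, 15604 and 35680 in AFE. Cells had been kept on fibroblast feeders, and the sum was lower on each DE array than on any ES or AFE array. Acta2, in the sum, read 14.35, 14.44 and 15.36 in ES, 11.98, 12.06 and 11.60 in DE and 12.54, 13.64 and 15.04 in AFE. A bright gene weighs heavily in a linear sum. Of the 16 markers, 14, 13 and 15 were detected in ES, 9, 10 and 14 in DE and 13, 14 and 11 in AFE. The part of the fibroblast markers in the troughs was not tested. Col1a1, Col3a1, Thy1, Postn and Lum were not detected on DE 1 and DE 2, and none of them on AFE 3 either. Thy1 was also not detected on AFE 1 and AFE 2, Lum not on ES 1 and ES 2, and Postn on none of the 9 arrays.

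Among the other groups, respiratory chain genes held no peak or trough among 14 tested and had a median difference of -0.09. Immediate early genes (13 tested), surface ectoderm genes (8), ribosome biogenesis genes (13), sterol and fatty acid synthesis genes (16) and Hox genes (12) held none either. Without DE 3, Acly, Elovl6 and Sc5d of the sterol and fatty acid group were peaks, Bop1 and Tfap2a were troughs of the ribosome biogenesis and surface ectoderm groups, and the Hox and immediate early groups still held none. Of the 12 Hox genes 10 were at least 2-fold higher on DE 3 than on DE 1 and DE 2, and their median of 0.37 became -0.43 without it and -0.12 with median scaling.

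**Figure D4:**
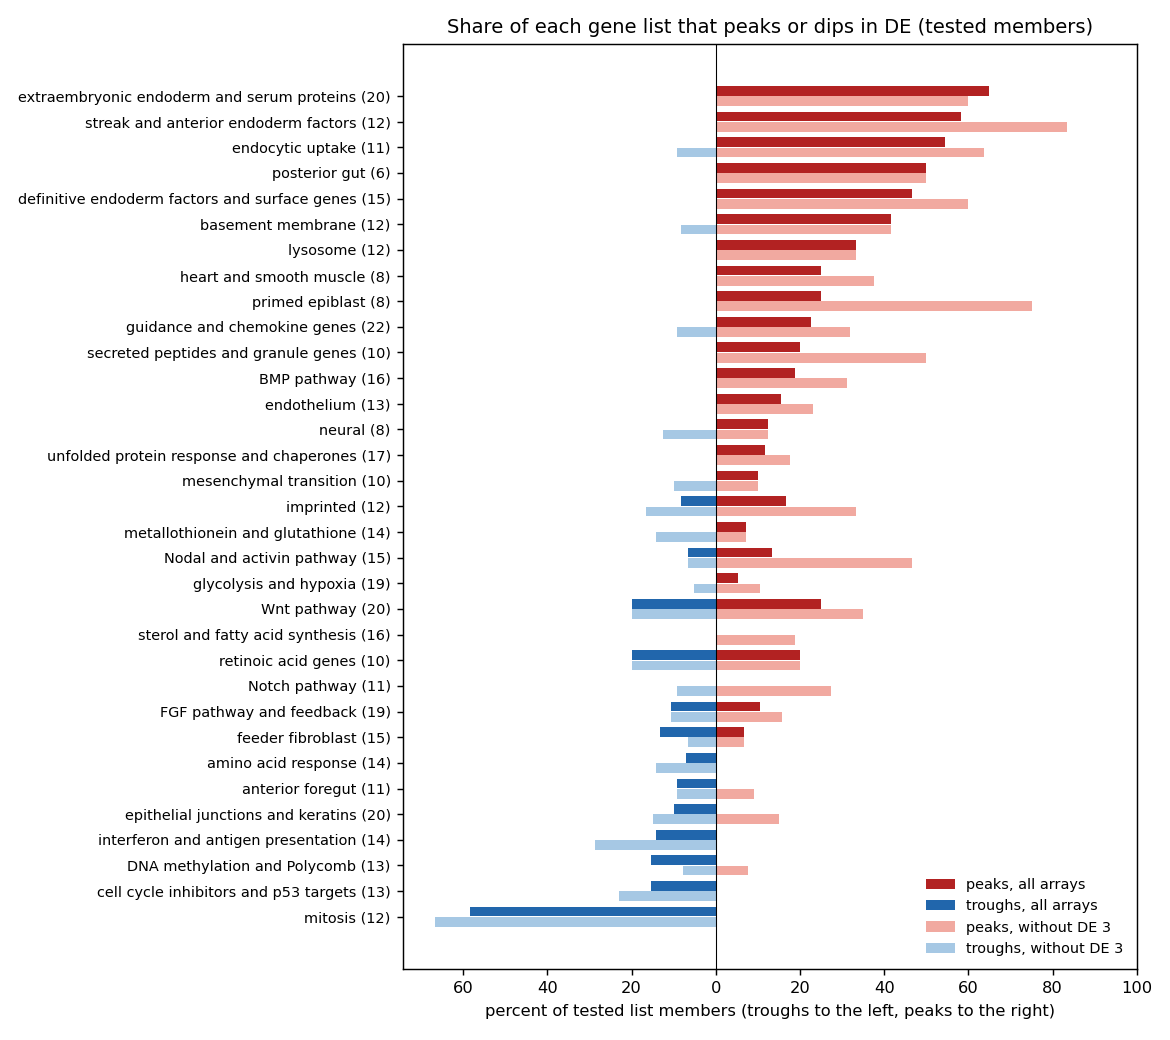
Percent of the tested members of each gene group (number tested in parentheses) that were peaks (red, to the right) or troughs (blue, to the left), with all 9 arrays (dark bars) and without DE 3 (light bars), for groups with at least 3 such calls over both settings. Against a background of 6.11% peaks and 4.96% troughs with all arrays, the extraembryonic group has 13 peaks of 20 and the mitosis group 7 troughs of 12. The background for the light bars is 9.34% peaks and 7.2% troughs.

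Without DE 3 the contrast called 2012 genes higher (19.6%) and 2145 lower (20.9%), and there were 957 peaks (9.34%) and 738 troughs (7.2%). Of the 626 peaks, 577 (92.2%) were peaks without DE 3, which is 60.3% of the 957; of the 508 troughs, 454 (89.4%) were, 61.5% of the 738. Among peaks of at least 2-fold 392 of 400 were kept and among such troughs 192 of 209. Being called without DE 3 was a condition for the 12 largest peaks and 12 largest troughs. Among the 380 peaks gained, DE 3 was at least 2-fold below DE 1 and DE 2 in 230; among the 284 troughs gained, it was at least 2-fold above them in 118. DE 3 was at least 2-fold higher than DE 1 and DE 2 in 772 genes and lower in 832.

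The peaks gained with the largest differences were Grp, a gastrin-releasing neuropeptide, Cbln1, a secreted synaptic organiser, Nptx2, a neuronal pentraxin, Lefty1, Fgf8, Tulp1, a tubby family protein, Otx2 and Shisal2b. Grp read 9.62, 9.49 and 4.48 in DE, 4.48, 4.77 and 4.62 in ES and 5.55, 5.10 and 4.50 in AFE, so DE 3 was at the level of arrays that did not detect it. Nptx2 read 12.99, 13.26 and 9.39 in DE, 10.27, 9.74 and 9.28 in ES and 6.42, 6.39 and 8.41 in AFE, with DE 3 inside the ES range, and differed by 4.71 ± 0.50 without it (adjusted p 0.000115). The troughs gained were led by Lpl, lipoprotein lipase, Serpinf1, a secreted serpin, Dkk3, of the Dickkopf family, Col18a1, a basement membrane collagen, Cav1, caveolin 1, Plcg2, Dpysl4 and Rasl11b. Cav1 read 4.52, 4.71 and 9.68 in DE, 11.11, 11.22 and 12.65 in ES and 7.16, 6.37 and 7.42 in AFE, so DE 3 lay between AFE and ES, and Col18a1 9.69, 9.73 and 14.00, 12.17, 12.12 and 12.66 and 13.93, 14.07 and 14.57, with DE 3 within the AFE range.

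Among peaks, the genes called only with DE 3 were led by Ephb1, an ephrin receptor, Nav1, a neuron navigator, Lrpap1, the chaperone of LDL receptor family proteins, Thbd, Sparc, Arsa, Nagk and Il20rb. Ephb1 read 6.56, 6.38 and 7.53 in DE, 4.61, 4.45 and 4.49 in ES and 6.23, 5.40 and 4.75 in AFE, and its adjusted p against AFE went from 0.0325 to 0.0555. Among troughs they were led by Acta2, Ccdc80, Tcea3, Pou4f1, Wfdc2, Ltbp3, Gad1 and B3gnt7. Wfdc2, a secreted whey acidic protein family member of epithelia, read 10.28, 10.16 and 8.57 in DE, 11.05, 11.30 and 10.90 in ES and 11.93, 11.42 and 12.71 in AFE, and its adjusted p against ES went from 0.0324 to 0.0534.

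Across arrays, 12628 to 14352 probes were detected and the median raw intensity ran from 93.9 to 151; the number of arrays limits the precision. Over the 10251 genes, levels of DE 1 and DE 2 correlated at 0.995 and of ES 1 and ES 2 at 0.994, while DE 3 correlated with DE 1 at 0.934 and with DE 2 at 0.931. ES 3 was the only array on the second slide. A second detected probe existed for 167 peaks, in 91 of which all other probes were peaks, and for 168 troughs, in 36 of which all were troughs. In 20 chromosomes compared, between 3.88% (chromosome 15) and 8.35% (chromosome 10) of tested genes were peaks.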

How the data were processed

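RNA of 9 samples was measured, 500 ng each, on Illumina bead arrays. The deposited intensity values are linear bead signals for each probe, not normalized between arrays, with a detection p-value of each probe per array, per the file headers. The authors' deposited table of log2 values, with a normalization that no label or header states, served as an alternative only: its column named for ES 3 ranks probes as the ES 2 intensities, and its column named for ES 2 as none of the 9 intensity columns.

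Of 25697 probes, 23978 had 1 gene symbol, 1719 none and none several; symbols were updated by Entrez number for 23962. Intensities were background-corrected from the detection p-values, offset by 16, quantile-normalized and put on the log2 scale with neqc of limma 3.58.1 in R 4.3.3. The 15090 probes with detection p below 0.05 on at least 3 arrays were kept, 14206 of them named, and the brightest probe stood for each of 10251 genes, 2772 of which had several probes. One limma model with 3 groups was fitted over all 9 arrays with moderated variances, and p-values were adjusted by Benjamini-Hochberg over all genes in each comparison.

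Genes are named by rule: the 12 largest peaks and troughs of at least 2-fold with no overlap and called without DE 3, up to 4 per gene list, the 8 largest of each kind called only with or only without DE 3, and landmark genes. Members and lists were chosen with earlier results of these data known. The procedure was tested on simulated data of 10251 genes. It recovered 20% of 100 genes changed 2-fold and 78% of 100 changed 4-fold, with 0 false calls. The simulation gave ES and AFE equal means and each gene the same spread on all arrays, and it changed only these genes. No array stood apart in it, so these rates need not hold for the measured data. Background correction, normalization, detection filter, probe choice, moderation, array weights, the replicate block, the slide, the call rule and each left-out array were varied. Same-numbered arrays of different groups had deviations from their group means correlated between -0.14 and 0.07. With 3 arrays a group and DE 3 standing apart, this cannot tell whether the numbers pair them. The main fit left them unpaired. Figures were drawn with matplotlib 3.10.9 in Python 3.11.15.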

Additional observations from a re-analysis of the deposited data

How the results depend on the processing

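Counts are given as DE higher, DE lower, peaks and troughs; with all arrays they were 1667, 1940, 626 and 508, and without DE 3 they were 2012, 2145, 957 and 738. Array weights gave 3047, 3544, 1538 and 1490, and without DE 3 3456 lower, 1536 peaks and 1463 troughs. Replicates 1 and 2 alone, chosen after seeing the data, gave 2787, 3180, 1454 and 1357, and its 1454 and 1357 are the counts without DE 3 too. A test against 1.5-fold gave 438, 444, 180 and 64, and without DE 3 722, 628, 383 and 133. Asking for 2-fold gave 400 peaks and 209 troughs, and without DE 3 586 and 318. Taking no overlap in place of the single calls gave 904 troughs, and without DE 3 1485 peaks and 1406 troughs. Median scaling, which moved the median of all genes from -0.06 to -0.16, gave 3269 lower and 1613 troughs without DE 3; with all arrays 39.2% of its calls were higher, against 46.2%, and peaks were 47.5% of peaks and troughs, against 55.2%. The authors' deposited table gave 302, 210, 99 and 47, and without DE 3 395, 228, 114 and 34, with 59% of calls higher and peaks 67.8% of peaks and troughs; without its ES 2 column, chosen after seeing the data, it gave 1635, 1551, 563 and 352. The call rules differ by construction; for the other settings the cause of a moved count was not tested.

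Leaving out 1 array gave 1072 to 2012 higher, 1193 to 2159 lower, 400 to 957 peaks and 256 to 738 troughs; without DE 3 the ranges were 962 to 2405, 910 to 2644, 486 to 1201 and 230 to 1050. Without DE 2 there were 1072 higher, 1193 lower, 400 peaks and 256 troughs. Without DE 1 there were 1277 lower and 290 troughs, without ES 2 337 troughs and without AFE 2 336. Where DE 3 and a second DE array were left out, the lone array was assumed to vary like the other groups. Slide as a block equals leaving out ES 3, with 540 peaks and 451 troughs. The replicate block gave 1557, 1764, 576 and 437, of which 537 peaks and 403 troughs were shared, and 1966, 2136, 971 and 773 without DE 3, so it moved no count by over 1.5 times.

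Of 3694 checks of 137 named genes, 3139 kept direction and call, 488 lost the call (98 genes), 61 gained it (18 genes) and 6 reversed, all of genes not called. Isl1 went from -0.20 to 0.018 with array weights, 0.16 without DE 3 and 0.076 with replicates 1 and 2, and Cdh1 from -0.09 to 0.40, 0.35 and 0.38. Leaving out 1 array gave -0.41 to 0.16 for Isl1 and -0.38 to 0.35 for Cdh1. With 3 arrays a group, changes of 2-fold were often missed in the simulated data, and genes near background have only bounds.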
